A study of Homo sapiens with 9 samples.

Results

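In HT-29 cells treated with 5-Aza, 157 well-expressed genes were present at clearly lower levels in every treated library than in every control library. They were chosen from the measured values: a gene symbol had to reach 20000 FPKM in all 3 control libraries, and its highest value over the 6 treated libraries had to stay below 0.6 times its lowest control value. Symbols that begin with MIR, SNOR, RPL, RPS, HIST or KRT were left out. Of 23284 gene symbols, 10698 met the control minimum under these terms, and the 157 members made up 1.47% of them. The opposite rule, which asks that the lowest treated value exceed the highest control value by the same factor, found 55 genes (0.514%). The balance between the 2 rules depends on the scale of the values. Lowered genes were 74.1% of those meeting either rule as deposited and 59.9% after median-of-ratios scaling. With each library set to the same FPKM total they were 27.7%, so that raised genes were then the majority. Because the comparison with the controls chose the members, every difference from the controls given here is a description and not a test.

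HT-29 is a human colon cancer cell line that grows as an epithelial sheet. The 9 libraries came from 3 cultures with the vehicle DMSO (0 µM), 3 cultures at 5 µM 5-Aza and 3 at 10 µM, each for 5 days, and p-values measure only the spread among these cultures. RNA was sequenced with paired reads, and the level of each gene was given as FPKM, fragments per kilobase of transcript scaled to the mapped fragments of the library. In these files the FPKM of a library sums to at least 3.69e+09, so a value is taken as relative, and values are written here in kFPKM, units of 1000 FPKM. The sums were 5.19e+09 to 5.91e+09 in the controls, 4.49e+09 to 4.72e+09 at 5 µM and 3.69e+09 to 5.08e+09 at 10 µM. Each treated sum thus lay below each control sum.

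5-Aza (5-aza-2'-deoxycytidine) is a cytidine analogue that is built into DNA and traps DNA methyltransferases, so that methylation is lost as cells divide. It is best known for genes that come on after treatment. The genes described here went the other way. They are described below in 11 classes that were made after the members were known and are an ordering, not a finding. In bulk RNA, fewer cells of a type and less RNA per cell cannot be told apart.

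The cells carried the markers of colon epithelium: 11 of 12 such genes reached 20 kFPKM in all controls, and CDX1 did not. The 4 endothelial markers summed to at most 12.4 kFPKM in any library. The 6 leukocyte markers summed to between 8568 and 8816 kFPKM in the controls, 3906 and 4782 at 5 µM and 4533 and 6540 at 10 µM, nearly all of it LYZ, and CD3E was listed at 0 in the controls. The summed level of the epithelial markers lay between 90321 and 108610 kFPKM (rounded) in the controls, between 37769 and 42431 at 5 µM and between 29655 and 52146 at 10 µM, most of it from the keratins KRT8 and KRT18, whose symbols the rule leaves out. The sum does not speak for each marker. CEACAM5 went from between 177 and 217 kFPKM in the controls to between 520 and 626 in the 5 µM libraries (rounded), CDH17 from between 49.4 and 56.5 to between 76.8 and 85.2, and CDX1 from between 3.42 and 4.35 to between 15.2 and 19.01. At 10 µM CEACAM5 lay between 228 and 385, CDH17 between 36.6 and 70.9 and CDX1 between 0.770 and 8.05. CDH1 lay between 2102 and 2158 in the controls, 1852 and 2253 at 5 µM and 1009 and 1657 at 10 µM, so that its ranges overlapped at 5 µM and not at 10 µM. The 6 fibroblast markers summed to between 22.5 and 32.4 kFPKM in the controls, 82.2 and 88.7 in the 5 µM libraries and 44.8 and 52.1 in the 10 µM libraries. The part of these shifts in the members' values was not tested. Of the symbols left out for their prefix, 8 would have met the limit, namely KRT8, KRT18, KRT19, RPL3, RPL12, RPS3A, RPS6 and RPS18.

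A class of 7 members holds the elongation factor genes EEF1A1 and EEF1B2 and 5 noncoding RNA genes, 4 of them listed here as snoRNA hosts. It is shown first by sequence, because 5 of the 7 begin their transcript with the same kind of letters. The 30 bases given for each run from 10 before to 20 from the annotated start of the canonical transcript on GRCh37, and the capitals mark the unbroken run of C and T that begins at the first transcribed base. They lie at chr6:74230736-74230765 (minus strand), chr2:207024609-207024638 (plus), chr1:173837108-173837137 (minus), chr17:16342341-16342370 (plus) and chr20:47895169-47895198 (plus).
EEF1A1: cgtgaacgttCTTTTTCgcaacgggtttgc
EEF1B2: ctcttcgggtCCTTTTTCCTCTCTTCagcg
GAS5: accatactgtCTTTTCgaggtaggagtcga
C17orf76-AS1: aaggtgtgacCTTTTCattcccgttgttat
ZNFX1-AS1: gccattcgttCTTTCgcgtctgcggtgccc
A start with C followed by at least 4 further C or T is the letter pattern known from transcripts of ribosomal proteins and elongation factors. It was found at 12 of 152 members with a mapped start (7.89%), at 5.22% of the other well-expressed genes and at 2.97% of all annotated starts. A match describes these letters only and is not evidence of a working element.

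EEF1A1, the elongation factor that brings aminoacyl-tRNA to the ribosome, was the most abundant member, with 24818, 25158 and 21771 kFPKM in the 3 controls, 8819.6, 10658 and 10834 in the 5 µM libraries and 6607, 12510.5 and 9028 in the 10 µM libraries. Its mean level was 0.407 times the control over the treated libraries. Its exchange factor EEF1B2 stood at 3032, 2976 and 2478 kFPKM in the 3 controls, 973, 1129 and 959 in the 5 µM libraries and 778, 1418 and 1035 in the 10 µM libraries. The gap between control and treated values is what the rule requires of each member. For 10 µM vs. 0 µM limma did not call EEF1A1 lower (log2 change -1.40 ± 0.50 SE, limma adjusted p = 0.0956). It called EEF1B2 lower (-1.43 ± 0.25, limma adjusted p = 0.0159). EEF1A1 has near-identical processed copies elsewhere in the genome, and how reads were shared among them is not known. GAS5, whose introns hold small nucleolar RNAs that guide ribosomal RNA modification, had 6615.01, 6874 and 5753 kFPKM in the 3 controls, 2077, 2168 and 1954 in the 5 µM libraries and 1762, 3166 and 2719 in the 10 µM libraries. ZNFX1-AS1 (now ZFAS1) and C17orf76-AS1 (now SNHG29) are snoRNA host genes of the same kind, and without strand information their reads cannot be told from those of a gene on the opposite strand where the 2 overlap. ZNFX1-AS1 had 8624, 9358 and 6904 kFPKM in the 3 controls, 2878, 3634 and 2899 in the 5 µM libraries and 2109, 3690.2 and 3047 in the 10 µM libraries. C17orf76-AS1 had 9266, 8355 and 7222 kFPKM in the 3 controls, 2629, 3189 and 3026 in the 5 µM libraries and 2370.5, 4174 and 3260.98 in the 10 µM libraries. In each of these 3 host genes 10 µM replicate 2 was the highest treated library. SNHG5 (0.359 times the control) and the noncoding RNA EPB41L4A-AS1 (0.359) complete the class, whose ratios lay between 0.359 and 0.407, a narrow band beside the other classes.

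This narrow band covered a minority of each wider group. Of 31 translation factors listed for comparison, 2 were members, and the list's median level was 0.719 times the control at 5 µM and 0.661 at 10 µM. With limma, 7 of these 31 were called lower and 1 higher at 5 µM (2.17% and 14.1% of the genes tested), and 5 lower at 10 µM (3.4%). The members in such lists were chosen on these values, so their calls are not independent evidence. Of 16 snoRNA host genes, a list added after the values were seen, 4 were members and the median was 0.524 at 5 µM and 0.689 at 10 µM. For reference, the median over all well-expressed genes was 0.899 at 5 µM and 0.796 at 10 µM.

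**Figure D1:**
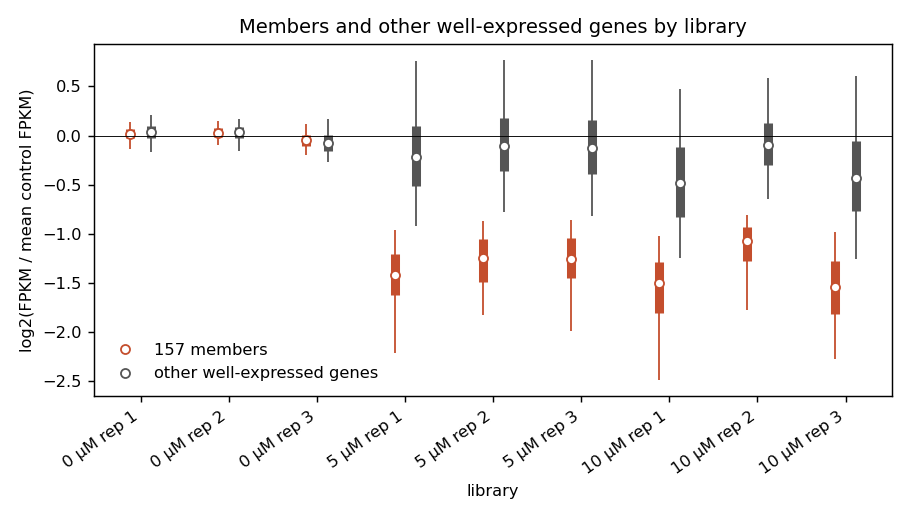
The vertical axis gives log2 of FPKM over the control mean in each of the 9 libraries, for the 157 members and the other well-expressed genes; circles are medians, thick bars the 25th to 75th and thin lines the 5th to 95th percentiles. Member medians lie between -1.55 and -1.07 in the treated libraries, and those of the other genes between -0.49 and -0.09.

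The member medians (log2) were -1.42, -1.25 and -1.26 in the 5 µM libraries, where those of the other well-expressed genes were -0.22, -0.10 and -0.13. In the 10 µM libraries they were -1.50, -1.07 and -1.55, beside -0.49, -0.09 and -0.43. The libraries with the lowest member medians thus include those in which the other genes were lowest too. For 89 members the highest treated value was in 10 µM replicate 2. Together the members held between 2.87% and 3.03% of the summed FPKM in the control libraries, between 1.35% and 1.49% at 5 µM and between 1.37% and 1.56% at 10 µM. The number of members rests on the scale: it was 115 after median-of-ratios scaling and 46 when each library was set to the same FPKM total, and then 120 genes met the opposite rule.

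Over the treated libraries the mean level was between 0.138 and 0.543 times the control mean, with a median of 0.398. A total of 150 members were below 0.5, and 8 below 0.25. NRP2, a co-receptor for semaphorins and VEGF, had the lowest ratio (0.138), with 33.8, 31.1 and 29.9 kFPKM in the 3 controls, 2.96, 4.28 and 6.62 in the 5 µM libraries and 3.98, 5.09 and 3.16 in the 10 µM libraries. ANXA13, an annexin of intestinal epithelium, had 2312, 2326.04 and 1886 kFPKM in the 3 controls, 316, 351 and 309 in the 5 µM libraries and 292.02, 526 and 319 in the 10 µM libraries. In both genes the treated values of the doses overlapped each other.

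The class of brush border and apical surface had the lowest median (0.291, 6 genes). The brush border is the carpet of microvilli on absorptive cells, and ANKS4B, MYO7B and PLS1 are described as genes of microvilli. ANXA13, POF1B and TM4SF4 are counted with them as other epithelial genes. ANKS4B, a scaffold of the links between microvilli, had 65.96, 76.1 and 60.7 kFPKM in the 3 controls, 14.7, 19.4 and 15.3 in the 5 µM libraries and 12.03, 19.3 and 14.5 in the 10 µM libraries. MYO7B, the myosin motor of the same links, had 49.6, 40.5 and 47.6 kFPKM in the 3 controls, 14.01, 13.3 and 13.9 in the 5 µM libraries and 15.04, 18.7 and 13.2 in the 10 µM libraries. Both genes were low in the 6 treated libraries, and they do not stand for all proteins of these links. PLS1, an actin bundler of microvilli, had 327, 328 and 289 kFPKM in the 3 controls, 123, 163 and 158 in the 5 µM libraries and 98.6, 166 and 80.8 in the 10 µM libraries. POF1B, an actin-binding protein of epithelial junctions, had 879, 880.5 and 783 kFPKM in the 3 controls, 169, 251 and 234 in the 5 µM libraries and 224, 354 and 175 in the 10 µM libraries. TM4SF4, a membrane protein of gut and liver, was the most abundant gene of the class, with 8781, 8539 and 8241 kFPKM in the 3 controls, 2129, 2696 and 2137 in the 5 µM libraries and 2500.5, 3456.03 and 2677 in the 10 µM libraries. Of 32 brush border and colonocyte genes listed for comparison, 16 were well expressed and 4 were members (MYO7B, PLS1, CA12 and HNF4A). In that list 6 genes were called lower and 7 higher at 5 µM, and 6 lower and 6 higher at 10 µM. Over all genes tested, 2.17% were called lower and 14.1% higher at 5 µM, and 3.4% lower and 4.07% higher at 10 µM.

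**Figure D2:**
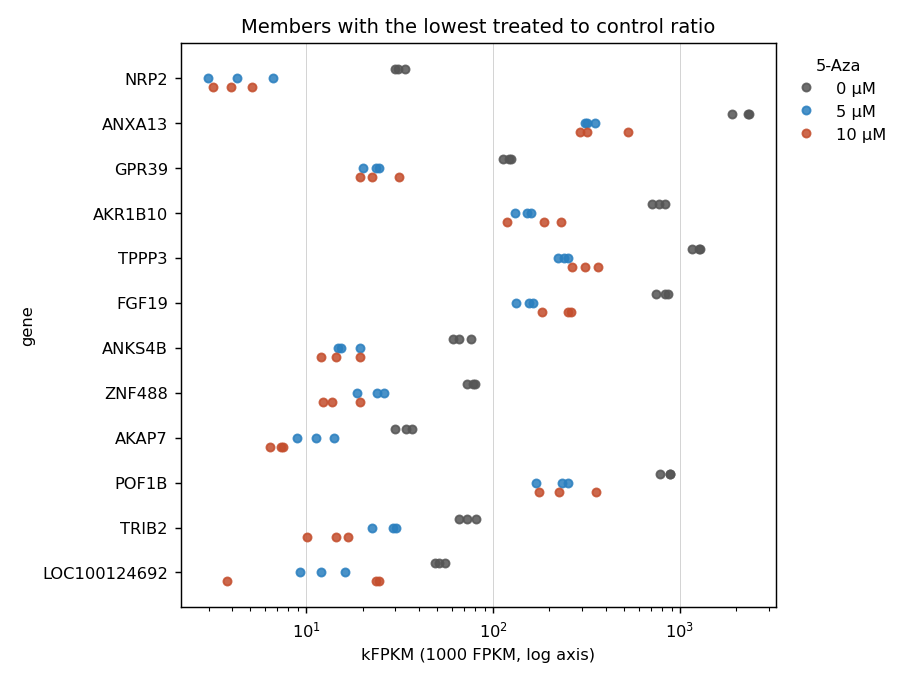
Values of the 12 members with the lowest ratio in each library, in kFPKM on a log axis, coloured by 5-Aza dose. For NRP2 the control libraries lie between 29.9 and 33.8 and the treated libraries between 2.96 and 6.62.

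Receptors and their ligands were 14 of the members. FGF19, a gut hormone that represses bile acid synthesis, had 835, 865 and 746 kFPKM in the 3 controls, 133, 163 and 156 in the 5 µM libraries and 182, 261 and 250.4 in the 10 µM libraries. Its receptor FGFR4 had 312, 276.04 and 315 kFPKM in the 3 controls, 117, 96.4 and 117 in the 5 µM libraries and 145, 159 and 152 in the 10 µM libraries. In both genes the 10 µM libraries were each above the 5 µM libraries, although still below the controls. GPR39, a zinc-sensing receptor, had 121, 124 and 112 kFPKM in the 3 controls, 24.4, 23.6 and 20.2 in the 5 µM libraries and 19.4, 31.4 and 22.5 in the 10 µM libraries. The rest of the class comprised the receptors ERBB3, FGFR2, HCAR1 (lactate), IL22RA1, LY75, P2RY2 (extracellular ATP) and PTPRB, the accessory protein MRAP2, and the semaphorins SEMA4B and SEMA4G. ERBB3 had the highest ratio of the 157 members (0.543).

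Transporters and channels (13 genes, median ratio 0.357) included 3 genes of iron handling. These 3 were picked from the members after their values were seen. No list of iron genes was counted, so nothing is read about iron genes as a group. SLC40A1, ferroportin, the exporter that moves iron out of the enterocyte, had 813, 898 and 839 kFPKM in the 3 controls, 212, 324 and 249.9 in the 5 µM libraries and 226.995, 372 and 219 in the 10 µM libraries. HEPH, the ferroxidase that works with it, had 149.5, 125 and 130.4 kFPKM in the 3 controls, 46.5, 50.2 and 52.7 in the 5 µM libraries and 49.7, 54.1 and 35.3 in the 10 µM libraries. STEAP2, a metalloreductase, had 218, 220.1 and 225.04 kFPKM in the 3 controls, 70.6, 93.8 and 85.8 in the 5 µM libraries and 80.8, 75.9 and 69.7 in the 10 µM libraries. These genes had ratios of 0.314, 0.357 and 0.359. Ion transport was represented by CFTR (0.433), the chloride channel of epithelia, by KCNE3 (0.331), a subunit of a potassium channel of the colon, and by GABRP and CACNG4. The solute carriers SLC1A1, SLC7A2, SLC22A3, SLC28A3 and SLC30A1 and the vitamin A receptor STRA6 made up the rest, and the class spanned ratios from 0.310 to 0.499.

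The transcription regulators (20 genes, median ratio 0.408) included factors that define gut epithelium. HNF4A, a nuclear receptor of gut and liver identity, had 306, 279.9 and 284 kFPKM in the 3 controls, 131, 116 and 145 in the 5 µM libraries and 106.997, 157 and 73.1 in the 10 µM libraries. Its paralog HNF4G had 167.99, 145 and 140.04 kFPKM in the 3 controls, 45.005, 57.3 and 48.4 in the 5 µM libraries and 36.2, 60.6 and 32.6 in the 10 µM libraries. Their control and treated ranges did not overlap, as the rule requires of each member. ZNF488, a zinc finger protein, had the lowest ratio of the class, with 78.3, 72.4 and 79.7 kFPKM in the 3 controls, 18.6, 23.8 and 26.2 in the 5 µM libraries and 13.7, 19.3 and 12.3 in the 10 µM libraries. ID1, an inhibitor of bHLH factors, had 1513, 1481 and 1365 kFPKM in the 3 controls, 589, 622 and 535 in the 5 µM libraries and 562, 617 and 675 in the 10 µM libraries. It was the member among 33 listed Wnt targets and growth regulators. Of these 33, 4 were called lower and 4 higher at 5 µM (2.17% and 14.1% of the genes tested), and 3 lower at 10 µM (3.4%). The other regulators were BCL11B, BHLHE41, ELF3, FOXQ1, H1F0, HOXC4, MYB, MYT1, ONECUT2, PPARG, SP6, TBL1X, THRA, TSC22D3, ZHX3 and ZNF792.

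Enzymes of detoxification and metabolism were the largest class, with 25 genes, a median ratio of 0.415 and a range from 0.211 to 0.484. AKR1B10, an aldo-keto reductase, had 711.98, 831 and 775 kFPKM in the 3 controls, 132, 151.004 and 159.9 in the 5 µM libraries and 119, 229.97 and 188 in the 10 µM libraries. AKR1C3, a reductase of steroids and prostaglandins, had 1146, 1054 and 1073 kFPKM in the 3 controls, 374, 513 and 464 in the 5 µM libraries and 300.02, 543 and 433 in the 10 µM libraries. ALDH3A1, an aldehyde dehydrogenase, had 113, 125 and 119 kFPKM in the 3 controls, 44.8, 40.4 and 39.003 in the 5 µM libraries and 25.1, 67.4 and 59.4 in the 10 µM libraries. These 3 genes were the members among 28 listed NRF2 targets and aldo-keto reductases, of which 4 were called lower and 1 higher at each dose. Over all genes tested, 2.17% were called lower and 14.1% higher at 5 µM, and 3.4% lower and 4.07% higher at 10 µM. CA12, a membrane carbonic anhydrase, had 2572, 2746 and 2906 kFPKM in the 3 controls, 1151, 1226 and 1228 in the 5 µM libraries and 987, 1239 and 1044 in the 10 µM libraries. PSPH, the last enzyme of serine synthesis, had 484, 437.02 and 379.8 kFPKM in the 3 controls, 185, 223 and 208 in the 5 µM libraries and 134, 203 and 149.8 in the 10 µM libraries and was the member among 24 listed genes of amino acid transport and synthesis, of which 1 was called lower at 5 µM and 3 at 10 µM. Over the 22 lists, 11 of 543 well-expressed entries were members (2.03%), near the 1.47% of all well-expressed genes, so that nothing is read from a list without a member. The class further held ALOX5, CHPT1, CRYZ, DDAH1, DHRS3, ETHE1, FAAH2, FBP1, GRAMD1B, GSTZ1, MAOB, NT5E, PCTP, PDSS2, PEX11A, PLIN1, STARD10, TBXAS1, TMLHE and UGT1A8. AKR1B10, AKR1C3 and UGT1A8 have close paralogs or shared exons, so their values are less certain.

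Among 19 genes of signalling and ubiquitin transfer the median ratio was 0.368. AKAP7, an anchor of protein kinase A, had 36.7, 34.2 and 29.98 kFPKM in the 3 controls, 8.88, 14.1 and 11.3 in the 5 µM libraries and 6.40, 7.31 and 7.48 in the 10 µM libraries. TRIB2, a pseudokinase, had 65.2, 80.5 and 72.4 kFPKM in the 3 controls, 22.5, 29.2 and 30.3 in the 5 µM libraries and 10.04, 16.8 and 14.5 in the 10 µM libraries. In both genes each 10 µM library was below each 5 µM library. RNF125, a ubiquitin ligase, was the member closest to the limit, with 36.5, 34.9 and 32.8 kFPKM in the 3 controls, 11.4, 16.2 and 15.3 in the 5 µM libraries and 13.8, 19.7 and 16.3 in the 10 µM libraries. The others were ADRBK2, ARHGEF40, ARL15, CAMK2N1, DAPK2, DDIT4, KALRN, PELI2, PLEKHG1, PLEKHG6, RAB3D, RGS3, RIN2, RNF144B, TRIB1 and TRIM31.

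Adhesion and cytoskeleton (16 genes) and secreted proteins, proteases and matrix (14 genes) had medians of 0.416 and 0.395. TPPP3, a tubulin polymerization protein, had 1279, 1263 and 1154 kFPKM in the 3 controls, 238, 222 and 250.2 in the 5 µM libraries and 263, 363 and 309 in the 10 µM libraries. KLK6, a serine protease, was the second most abundant member, with 10961, 10835 and 10757 kFPKM in the 3 controls, 5031, 5091 and 5352 in the 5 µM libraries and 4119, 6048 and 5386 in the 10 µM libraries. TRIOBP, an actin-bundling protein, had 474, 455 and 434 kFPKM in the 3 controls, 235.03, 241 and 234 in the 5 µM libraries and 209, 259.98 and 214 in the 10 µM libraries. The control values of KLK6 were close to each other, and its treated values were near one level at both doses. The remaining genes of adhesion and cytoskeleton were CDC42EP2, CORO2A, FAT1, FERMT1, FMN1, ITGB6, LAD1, MYOM3, NHS, PDLIM1, SNTB1, SSPN, TNNI1 and TPPP. The secreted class held ADAM19, COL17A1, F5, FAM3D, KIAA1199, PCSK5, PKDCC, PPIC, RARRES1, SERPINA5, TFPI, TGM2 and TXNDC5, among them coagulation factor V (F5) and the coagulation inhibitors TFPI and SERPINA5. By the paper's qRT-PCR at 5 µM, TGM2 was not significantly changed and its fold change pointed upward, while ALDH3A1 was significantly lower. On the paper's microarray of the same RNA both genes were lower, and the paper had selected both as changed on both platforms.

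Of the remaining members, 14 encode other proteins and 9 are pseudogenes, noncoding RNAs or loci under provisional symbols. Among these 9, LOC100507421 is now the protein-coding gene TMEM178B, and LOC148189 is now LINC00662. SNCG, gamma-synuclein, had 6851, 6955 and 6581 kFPKM in the 3 controls, 2235.97, 2058 and 2026.96 in the 5 µM libraries and 1708, 3273 and 3333 in the 10 µM libraries. ANXA2P2, a processed copy of annexin A2, had 9127, 9302 and 7832 kFPKM in the 3 controls, 3859, 4583 and 4485 in the 5 µM libraries and 2551, 4463 and 3111 in the 10 µM libraries, and its values are uncertain because reads can be shared with the parent gene. LOC100124692 had 55.03, 51.02 and 49.1 kFPKM in the 3 controls, 12.01, 9.23 and 16.1 in the 5 µM libraries and 24.5, 23.5 and 3.77 in the 10 µM libraries, with a wide spread among its 10 µM libraries. The other proteins were ANKRD22, C1orf21, C2CD2, C9orf152, COG5, FAM131B, KLHDC7A, NYNRIN, OBFC1, PDZD8, PRR15, PRR15L and TMEM54, and the other loci were ANXA2P1, FLJ35024, LOC100294145, LOC100507421, LOC148189, MGC12982 and NUDT16P1.

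**Figure D3:**
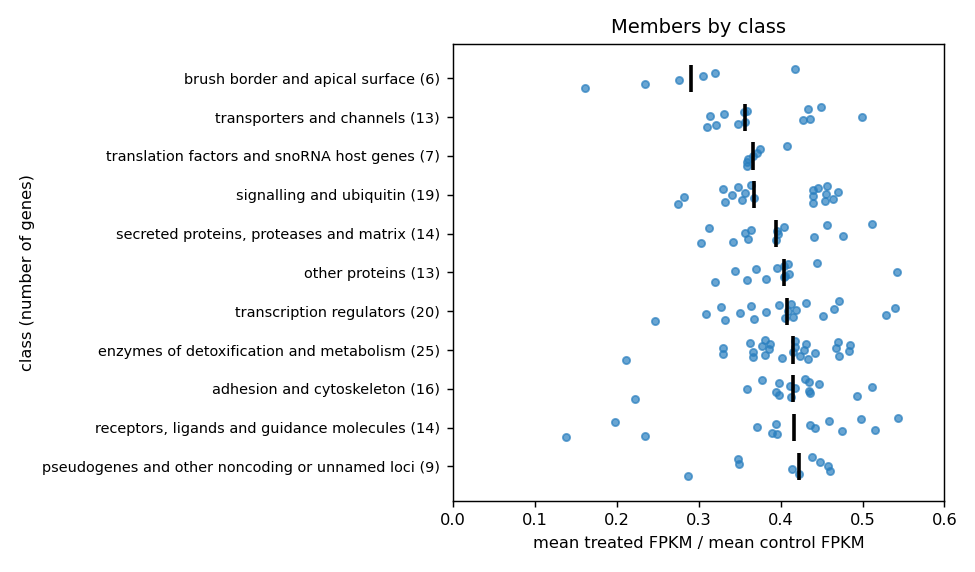
Each point is a member, placed by its mean treated FPKM over its mean control FPKM, in 11 classes made after the members were known; black bars are class medians. Medians run from 0.291 in the class of brush border and apical surface to 0.423 in the class of pseudogenes and other noncoding or unnamed loci. The member C9orf152 is not drawn, so the class of other proteins is shown with 13 genes.

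At the limit of the rule, the members just inside were TRIOBP and RNF125, whose highest treated value was 0.599 and 0.59996 times the lowest control value, and the genes just outside were EPHB4 (0.602) and LFNG (0.603). The list is thus cut through a continuous range. With limits of 0.5 and 0.7 in place of 0.6, the rule found 53 and 376 genes. Leaving out control replicate 3 gave 239 genes and leaving out 10 µM replicate 2 gave 241. Leaving out a library can only loosen the rule, so the members stay in by construction.

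Libraries that took no part in a choice were also examined. The rule was applied without the libraries of replicate 1, 2 or 3, which chose 182, 308 and 263 genes, and the left-out treated library was then set against the left-out control. For replicate 1, 96.2% of the chosen genes were below 0.6 at 5 µM and 94.0% at 10 µM, against 13.6% and 34.8% of the other well-expressed genes. For replicate 2 the shares were 93.8% and 70.5%, against 6.09% and 3.51%. For replicate 3 they were 81.4% and 93.5%, against 4.76% and 20.7%. The lowest share belonged to 10 µM replicate 2.

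With limma, called at an adjusted p (Benjamini-Hochberg) no larger than 0.05 and a log2 change below -1, 436 of 20051 genes were called lower for 5 µM vs. 0 µM (2.17%), and 136 of the 157 members were among them. For 10 µM vs. 0 µM the corresponding numbers were 644 of 18928 genes (3.4%) and 146 members. Since the rule used both contrasts, nothing is read from these counts. Without control replicate 2 the number for 10 µM vs. 0 µM was 95 members, and with total scaling it was 78, beside 81 for 5 µM vs. 0 µM.

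For 10 µM vs. 5 µM, limma called 969 of 20085 genes lower (4.82%) and 26 higher (0.129%). Among the 10698 well-expressed genes 147 were called lower (1.37%) and 9 higher. Of the members, 1 was called lower (0.637%) and 0 higher by limma. At an unadjusted p under 0.05, 13 members were lower (8.28%) and 6 higher (3.82%), beside 18.9% and 4.22% of the well-expressed genes. The rule used the values of both doses, and a gene raised at 5 µM could not become a member, so these shares are in part set by the choice and are not read as a property of the members. The median log2 change was -0.09 over the members and -0.31 over the genes tested, which include genes of low level. Set beside the well-expressed genes alone, the members were closer. The median ratio of the 10 µM mean to the 5 µM mean was 0.944 over the members and 0.888 over the well-expressed genes. By group means, 93 members were lower at 10 µM than at 5 µM and 64 were higher, so that 59.2% were lower, beside 70.9% of the well-expressed genes.

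The member called was FAM131B, on chromosome 7 from 143050493 to 143059863 of GRCh37. It had 178, 207 and 176 kFPKM in the 3 controls, 82.3, 85.8 and 100.4 in the 5 µM libraries and 33.1, 54.2 and 30.4 in the 10 µM libraries. Its log2 change between the doses was -1.23 ± 0.24 (SE, n = 3 per dose, limma adjusted p = 0.0282), and each of its 10 µM libraries was below each 5 µM library. The rule had already used these 6 libraries, so the p places the gene among the genes tested and is no independent support. The call was lost with the replicate number as a block (adjusted p = 0.0606) and without 5 of the 6 libraries in turn, as given in the closing section. TRIB2 (-1.01 ± 0.26, limma adjusted p = 0.0675), FGFR4 (0.47 ± 0.13, 0.0898) and FGF19 (0.61 ± 0.17, 0.0947) came next by p and did not pass; FGFR4 was named after its values were seen.

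**Figure D4:**
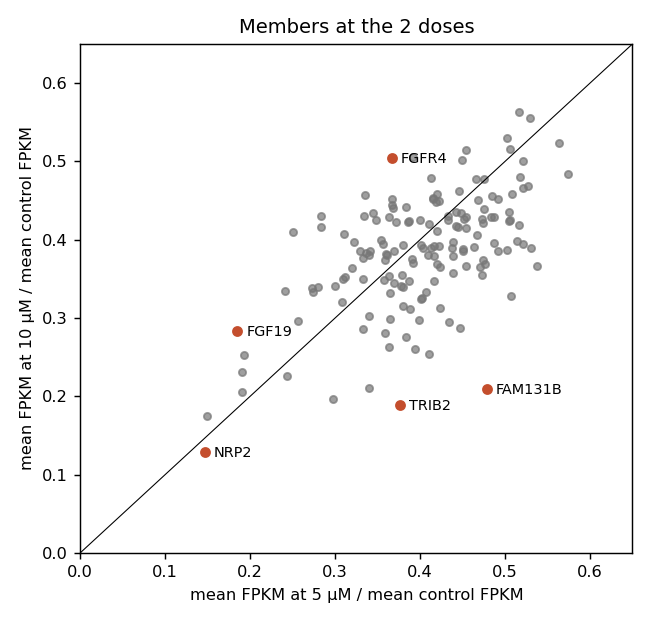
Each point is a member, with its mean FPKM over the control mean at 5 µM on the horizontal axis and at 10 µM on the vertical axis; the line marks equal ratios. FAM131B lies below the line at 0.478 and 0.210, FGF19 above it at 0.185 and 0.284.

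CpG, the dinucleotide at which DNA is methylated, was counted at the start regions of the members. In 300 bases around the start (250 before and 50 after), the median of observed over expected CpG was 0.724 in 152 members and 0.866 in 10311 other well-expressed genes. A ratio below 0.4 was found for 36 members (23.7%) and for 6.94% of the others. Of the 6 genes in the class of brush border and apical surface 5 were below 0.4, all but the microvillus gene PLS1 (0.807). These are descriptions of sequence, and methylation was not measured here. The sequences below show the 120 bases before the start, with CG in capitals, for 3 members with a ratio below 0.4 and 3 above it, HNF4A only just so at 0.409. They were picked after their ratios were seen. They lie at chr2:128293139-128293258 (plus strand), chrX:65383969-65384088 (plus), chr6:30080868-30080987 (minus), chr2:190445513-190445632 (minus), chr20:42984219-42984338 (plus) and chr4:187645011-187645130 (minus) of GRCh37.
MYO7B: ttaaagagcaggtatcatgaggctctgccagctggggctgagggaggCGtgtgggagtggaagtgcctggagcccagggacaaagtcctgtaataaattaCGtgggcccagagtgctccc
HEPH: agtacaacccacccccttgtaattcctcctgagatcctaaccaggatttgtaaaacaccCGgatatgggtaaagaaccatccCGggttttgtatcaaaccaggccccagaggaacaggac
TRIM31: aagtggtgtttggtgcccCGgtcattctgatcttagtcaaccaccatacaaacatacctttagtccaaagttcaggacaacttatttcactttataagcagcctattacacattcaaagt
SLC40A1: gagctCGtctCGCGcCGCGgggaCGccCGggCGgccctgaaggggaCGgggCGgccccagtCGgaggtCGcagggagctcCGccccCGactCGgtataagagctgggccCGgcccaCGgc
HNF4A: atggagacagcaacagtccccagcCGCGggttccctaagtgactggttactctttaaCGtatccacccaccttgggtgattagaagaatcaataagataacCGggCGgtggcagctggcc
FAT1: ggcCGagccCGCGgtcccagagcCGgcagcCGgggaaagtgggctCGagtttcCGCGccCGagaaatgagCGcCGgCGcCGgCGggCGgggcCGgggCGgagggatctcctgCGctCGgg
The first 3 hold 2, 2 and 1 CG in these bases, and SLC40A1, HNF4A and FAT1 hold 17, 5 and 19. The iron genes HEPH and SLC40A1, both low after treatment, thus stand at opposite ends of this measure.

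**Figure D5:**
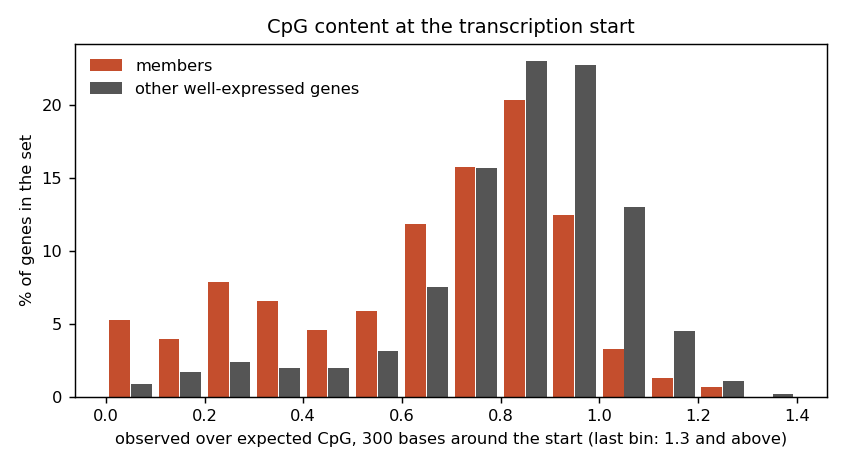
Share of genes, in percent, by observed over expected CpG in 300 bases around the start, for the members and the other well-expressed genes. The 36 members below 0.4 make up 23.7% of 152.

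A TATA box, spelled TATAAA and beginning 40 to 21 bases before the start on the sense strand, was found at 5 members (3.29%), at 1.60% of the other well-expressed genes and at 2.14% of all annotated starts. The 30 bases printed for each run from 45 to 16 before the start, with the motif in capitals, at chr1:201979670-201979699, chr20:30193047-30193076, chr15:81071666-81071695, chr6:18387536-18387565 and chr3:149192439-149192468, each on the plus strand.
ELF3: aggggacacacTATAAAgccctgagctcag
ID1: ggccgtggcgtgttTATAAAagacaagctg
KIAA1199: gtcagtaaaagtggcTATAAAagcggcctc
RNF144B: gcctgagcttcctgTATAAAtaaacgcgct
TM4SF4: ggtcagggagaatgTATAAAtgtccattgc
The motifs CAAAGTCCA and GCAATAAA, searched on both strands for the factors HNF4 and CDX, were at 0 of 152 members, and at 0.252% and 0.359% of the other well-expressed genes. No match says only that these letters are not in this window.

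By annotation, 144 members were protein coding, 7 long noncoding RNAs and 3 transcribed pseudogenes, and 3 were not matched. The median length of the canonical transcript was 3691 nucleotides in members and 3187.5 in the other well-expressed genes, and the median coding length 1359 and 1383. None of these properties took part in the choice of the members.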

How the data were processed

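The deposited files give 1 FPKM value per gene entry for each of 9 HT-29 libraries. The authors filtered paired reads with FASTX-Toolkit, aligned them with TopHat to hg19 (GRCh37) and computed the FPKM with Cufflinks. The authors' methods scale FPKM to the mapped fragments of a library, but here each library adds up to 3.69e+09 or more, which the sources used here do not explain. Entries of a repeated symbol were summed (543 of 23284 symbols). The genes of the rule and the gene lists were chosen with earlier results of these data known, and the 11 classes and the snoRNA host list after the members were known.

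Comparisons used log2(FPKM + 1), genes whose largest value reached 10 FPKM, and limma 3.58.1 (R 4.3.3, eBayes with an intensity trend) on the 6 libraries of each pair of groups, with Benjamini-Hochberg adjustment, an adjusted p of 0.05 and a 2-fold limit. Calls on values that are not counts do not model counting error. Fold changes of low genes are uncertain on this scale. The 1 FPKM added before the logarithm is small beside the minimum of 10 FPKM. A gene at 0 in 1 group can thus show a large fold change from little signal. The minimum of 10 FPKM is itself very low on this scale. For AKAP7, 6.40 kFPKM in 10 µM replicate 1 was an estimated 30.5 fragments. The shares over all genes tested therefore include genes of very few fragments and are an unlike background for well-expressed genes. An exact permutation test of 3 against 3 cannot go below p = 0.1 and was not used. The scripts were tested on simulated data.

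Depth was estimated from the low values: at 110-nucleotide microRNA genes all 46 values above 0 were whole multiples of 1 step per library (tolerance 0.01). Extended to longer genes by annotated length, a relation that 150 of 232 genes with clean steps followed within 15%, this gave 143 members at least 30.5 fragments in every library, with a median lowest value of 556 and at least 100 fragments for 124 of them. No count model was run on these estimated fragments. Relative to control replicate 1, estimated depth was 1.0 to 2.14 in the controls, 2.29 to 2.57 at 5 µM and 1.27 to 2.01 at 10 µM. Each 5 µM library was thus deeper than each control by this estimate, and the effect of depth on the calls was not tested.

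Named genes with values in every library were the 12 members of lowest ratio, the 8 of highest control level, those nearest the limit, members called between the doses and members on the lists. HNF4G, HEPH, SLC40A1, STEAP2 and FGFR4 were added after their values were seen. Start regions came from the GRCh37 genome and GENCODE canonical transcripts (152 of 157 members). Biotypes came from RefSeq. Alternatives were other limits, minima, scalings, pseudocounts, filters, a fit of all 9 samples, the replicate block and each library left out; alternatives for the opposite rule, the kept prefixes and single ratios were chosen after seeing the data. Software was pandas 2.3.3, numpy 2.4.6 and matplotlib 3.10.9.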

Additional observations from a re-analysis of the deposited data

Results flagged for a closer look

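FAM131B was singled out because its effect differed between the doses: its log2 change for 10 µM vs. 5 µM was -1.23 (limma adjusted p = 0.0282), lower in 3 of 3 libraries at 10 µM than in any at 5 µM, where 4.82% of the genes tested were called lower. Over 14 alternatives the log2 change lay between -1.49 and -1.03 and the limma adjusted p between 0.00454 and 0.160. The call was kept under 8 of them and lost under 6, namely the replicate block and the fits without 5 µM replicates 1, 2 and 3 and 10 µM replicates 1 and 3. Groups of 3 libraries were not examined for outlying samples.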

How the results depend on the processing

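The rule found 53 genes at a limit of 0.5, 376 at 0.7 and 46 with total scaling, under which 120 genes met the opposite rule. Lowered genes were 74.1% of those meeting either rule as deposited, 59.9% after median-of-ratios scaling and 27.7% after total scaling. With 1 library left out, the rule found between 158 and 241 genes and the opposite rule between 55 and 83. With a minimum of 20000 FPKM for the largest value, 1016 genes rose at 5 µM vs. 0 µM, 413 at 10 µM vs. 0 µM, and 517 fell at 10 µM vs. 5 µM. Median-of-ratios scaling gave 284 lower genes at 10 µM vs. 0 µM and 55 higher at 10 µM vs. 5 µM. Total scaling gave 167 lower genes at 5 µM vs. 0 µM, 1362 higher and 164 lower at 10 µM vs. 0 µM, and 42 higher at 10 µM vs. 5 µM. Without a fold threshold there were 4263 higher and 3553 lower genes at 5 µM vs. 0 µM, 1837 lower at 10 µM vs. 0 µM and 64 higher at 10 µM vs. 5 µM. A fit of all 9 samples gave 1174 higher genes at 10 µM vs. 0 µM. With 1 library left out, 10 µM vs. 0 µM gave 337 to 819 higher and 165 to 1500 lower genes, and 10 µM vs. 5 µM gave 12 to 64 higher and 176 to 1873 lower. The members called lower at 10 µM vs. 0 µM were 95 to 151, the lowest without control replicate 2. The highest numbers of lower genes came without 10 µM replicate 2. The cause was not tested. Of 58 counts from the alternatives that kept all libraries, 38 were within 1.5 times the reported count. For 32 named members, 18 of 384 ratios under 12 alternatives moved by more than their spread over treated libraries; their direction was fixed by the choice of members.

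Replicate numbers did not pair the samples: correlations of deviations over 10403 genes were -0.46 to 0.38 for 9 pairs with the same number and -0.61 to 0.47 for 18 with different numbers. With a block for the replicate, 11 genes were higher and 407 lower at 10 µM vs. 5 µM, and the numbers of members called lower were 136 at 5 µM and 139 at 10 µM vs. 0 µM.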
